A study of Mus musculus with 36 samples.

Results

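The bladder of corticosterone-treated mice was compared between 2 times that lie 12 h apart, 20 h and 8 h on the study's label clock. The comparison used 6 of the 36 libraries of the series, 3 at 20 h and 3 at 8 h, chosen by their labels alone. All mice were of the C57BL/6 strain and both groups had undergone bilateral adrenalectomy, the removal of both adrenal glands, which takes away the main source of corticosterone. Both groups were then given corticosterone (CORT, the main glucocorticoid of the mouse) at the inactive phase. The other 18 libraries come from adrenalectomised mice given vehicle, and were used here at 20 h and 8 h to set the CORT difference beside the same interval without the hormone. No group had intact adrenal glands. The labels do not say what hour of the day time 0 is. They also do not tell whether replicates were taken from different mice, and the p-values here reflect only the spread between these libraries, part of which may be technical. Replicate 3 of each group was registered later, and its time comes from its title.

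Glucocorticoids act through the glucocorticoid receptor, a transcription factor that enters the nucleus when it binds hormone. They reach peripheral tissues in a daily rhythm and are one of the signals that set the clocks there. In those clocks the activators CLOCK and BMAL1 (encoded by Arntl) drive the Per, Cry and Nr1d1 genes, whose products hold the activators back in turn. The REV-ERB repressors (Nr1d1 and Nr1d2) and the ROR activators (such as Rora) compete for one kind of site in the promoters of Arntl and Nfil3, and DBP, TEF and HLF carry the rhythm to further genes. The bladder stores more urine in the resting phase of the day, and its urothelium, smooth muscle and sensory genes have been studied as outputs of this clock.

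Values are read counts per gene that had been quantile normalised by the authors, here put on 1 scale across the 18 CORT libraries. The mean total was 12311337, 11146599 and 9591304 counts per library for CORT replicates 1, 2 and 3. Of 49585 features, 17921 passed the filter on low values and were tested with limma on the log2(value + 1) scale, and differences below are 20 h minus 8 h on that scale. Across features, the 6 libraries correlated with each other at r from 0.980 to 0.988 on the log2 scale, and the highest value was between 20 h replicate 2 and 8 h replicate 2, which belong to different groups. The names of replicate 2 are not the same in all deposited tables. The tables of selected genes give the library called CORT 8 h replicate 2 in the full tables the name CORT 20 h replicate 2. They give the one called CORT 20 h replicate 2 the name vehicle 8 h replicate 2. The one called vehicle 20 h replicate 2 has the name CORT 8 h replicate 2 there. Under the other names the CORT 8 h group thus holds a library that the full tables place in vehicle. In all, 8 names of replicate 2 differ, at 4 h, 8 h, 16 h and 20 h. The names of the full tables were used throughout. The fit was also run under the other names. It was run as well without the 2 doubly named libraries of the 6, CORT 8 h replicate 2 and CORT 20 h replicate 2. Most differences were smaller under the other names. There, of the 102 genes that the rules for naming select, 64 kept their sign but shrank by more than 1.5 times, 12 took the other sign and 6 grew by more than 1.5 times. Without the 2 libraries 3 shrank and 17 grew by that factor with the same sign, and 2 took the other sign.

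Promoter sequence was read from RefSeq (build GRCm38.p6) as windows from 250 bases before to 50 bases after a gene's start, for 14 of the 20 genes with the clearest differences and for 16 of 18 clock genes. The 3 windows below are shown because each holds a clock motif and belongs to a gene described in the results. Each is written 5′ to 3′ on the gene's own strand with the motif in capitals.
Arntl, chr7:113207261-113207560, plus strand, RORE: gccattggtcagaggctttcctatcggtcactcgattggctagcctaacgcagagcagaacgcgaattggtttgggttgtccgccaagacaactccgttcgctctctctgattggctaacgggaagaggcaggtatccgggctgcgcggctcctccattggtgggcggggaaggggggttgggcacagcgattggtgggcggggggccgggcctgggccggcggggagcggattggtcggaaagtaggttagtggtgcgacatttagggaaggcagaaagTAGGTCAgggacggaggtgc
Nfil3, chr13:52980990-52981289, minus strand, RORE on the opposite strand: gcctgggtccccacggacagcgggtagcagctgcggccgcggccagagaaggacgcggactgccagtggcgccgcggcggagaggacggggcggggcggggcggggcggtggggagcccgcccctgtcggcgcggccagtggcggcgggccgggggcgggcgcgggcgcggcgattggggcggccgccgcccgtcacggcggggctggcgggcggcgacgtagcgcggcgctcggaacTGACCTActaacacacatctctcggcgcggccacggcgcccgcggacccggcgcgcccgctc
Klf11, chr12:24651121-24651420, plus strand, E-box: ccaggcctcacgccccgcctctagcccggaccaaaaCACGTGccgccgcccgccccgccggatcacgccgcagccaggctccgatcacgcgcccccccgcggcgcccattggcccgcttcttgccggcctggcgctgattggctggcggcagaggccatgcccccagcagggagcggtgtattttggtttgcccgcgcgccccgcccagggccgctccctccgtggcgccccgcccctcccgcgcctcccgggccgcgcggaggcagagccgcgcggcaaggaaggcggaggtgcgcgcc

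The motifs searched on both strands were the E-box CACGTG, the D-box TTATGNAA, the ROR and REV-ERB element (RORE) TAGGTCA and the glucocorticoid response element (AGAACA, any 3 bases, TGTTCT), and none of them can lie inside another. They were chosen with results known. Among 32851 promoter windows, 7.15% hold the E-box, 3.38% the D-box, 2.61% the RORE and 0.00913% the glucocorticoid element. The 19 windows of the 20 genes held 1 E-box, in Klf11, and none of the other motifs. Among the clock genes, windows of Per1, Cry1, Ciart, Bhlhe41 and Tef held an E-box, windows of Per1 and Per3 a D-box, and windows of Arntl and Nfil3 a RORE. A match of letters is a description and not a binding site.

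Few features separated 20 h from 8 h beyond the spread of the libraries. At an adjusted p of 0.05, 2 of 17921 features were called (0.0112%), 1 higher (0.00558%) and 1 lower (0.00558%) at 20 h. At an unadjusted p of 0.05, 781 features passed (4.36%), 422 higher (2.35%) and 359 lower (2%), which is close to the 5% that a p of 0.05 lets through. The 3 libraries at 20 h lay all above the 3 at 8 h in 856 features (4.78%) and all below in 851 (4.75%). The same interval in vehicle bladder gave 25 called of 17867 features (0.14%), 10 higher (0.056%) and 15 lower (0.084%), with 1449 (8.11%) at an unadjusted p of 0.05. The difference between the CORT and the vehicle intervals was tested itself over all 36 libraries, and limma called 0 features, with 713 (3.99%) at an unadjusted p of 0.05.

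The feature that rose at 20 h was Gm21541 (chr4:41903610-41904743, plus strand, mm10), a protein-coding gene model in the cluster of Ccl21 genes, which encode chemokines that draw T cells and dendritic cells to lymphatic vessels. Its values were 31.7, 39.0 and 25.9 at 20 h, against 0, 0 and 0 at 8 h, and the fitted difference was 5.04 ± 0.40 (log2, SE, limma adjusted p = 0.00011, n = 3 each), a size that depends on the pseudocount. Gm13304, a near-identical copy at chr4:42114817-42115917, showed the mirror image, with 0, 0 and 0 at 20 h against 47.0, 27.3 and 24.8 at 8 h. Of the 821 stretches of 50 bases in the Gm21541 transcript, 788 (96.0%) also occur in that of Gm13304. The 2 genes summed gave 31.7, 39.0 and 25.9 at 20 h against 47.0, 27.3 and 24.8 at 8 h, and here the groups overlap. Tested as 1 feature, the sum was not called (limma difference 0.00, adjusted p = 1). Which copy a read belongs to is therefore uncertain, and the call on Gm21541 does not hold for the pair. Gm13304 itself was left out of the test because it was at 0 in 11 of the 18 CORT libraries. Ccl21a, which shares 588 of those stretches (71.6%), had 93.4, 85.3 and 69.8 at 20 h against 127, 72.0 and 66.8 at 8 h, also overlapping.

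The feature that fell at 20 h was Vmn1r32 (chr6:66552180-66560096, minus strand, mm10), a vomeronasal receptor gene. It had 0.111, 0 and 0.167 at 20 h, against 1.28, 1.72 and 2.06 at 8 h, a difference of −1.29 ± 0.11 (log2, SE, limma adjusted p = 0.000167, n = 3 each). The groups do not overlap, but the values rest on about 2 reads per library or fewer. Both calls were lost without replicate 2, without replicate 3 and under the other library names, where limma called 0 features with 752, 682 and 418 at an unadjusted p of 0.05.

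Behind these features stood 2 genes with far more reads, each with an adjusted p just above the threshold. Padi2 encodes a peptidylarginine deiminase, which turns arginine in proteins into citrulline. It had 117, 97.3 and 114 at 20 h, against 24.0, 26.4 and 31.4 at 8 h, a difference of 1.97 ± 0.31 (log2, SE, limma adjusted p = 0.0582). Every 20 h library held at least 3 times the level of any 8 h library. The difference was 2.04 within replicates 1 and 2 and 1.82 within replicate 3, and without the doubly named libraries it was 2.03. Under the other names it was 0.88 (unadjusted p = 0.127). Ralgps2, an exchange factor for the small GTPase Ral, had 365, 398 and 368 at 20 h, against 558, 575 and 542 at 8 h. Its difference was −0.57 ± 0.08 (log2, SE, limma adjusted p = 0.0582), with no overlap and with little spread inside either group. It was −0.57 within replicates 1 and 2, −0.56 within replicate 3 and −0.21 under the other names. Padi2 passed the adjusted threshold under 5 of the alternative settings and Ralgps2 under 4.

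**Figure D1:**
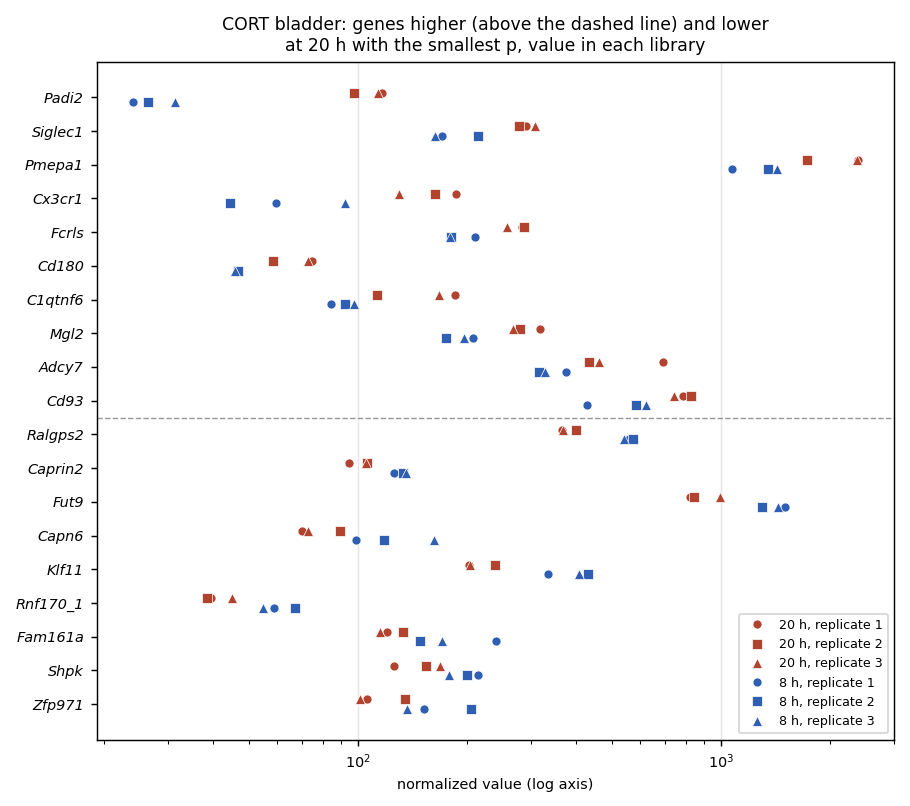
Normalised read count per library (log axis) of 19 genes with the smallest p among those that did not overlap, 10 higher (above the dashed line) and 9 lower at 20 h, with each point 1 library, 20 h in red above 8 h in blue and the marker shape giving the replicate. Padi2 lies between 97.3 and 117 at 20 h and between 24.0 and 31.4 at 8 h, while Ralgps2 lies between 365 and 398 at 20 h and between 542 and 575 at 8 h.

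These 2 genes head a set of 20, named by the smallest p among genes with a mean of at least 50 whose groups did not overlap, 10 in each direction. Of the 20, 19 are described, and none other than these 2 came near the adjusted threshold, where limma's adjusted p ran from 0.314 upward, so their values are given as levels and not as calls. Since the rule used this contrast, their lack of overlap is a description. Of the 20 differences, 19 shrank under the other names by more than 1.5 times and the other one changed sign. Without the doubly named libraries none moved by that factor. The 20 were picked by smallest p under the names of the full tables, so shrinkage on exchanging libraries is favoured by that choice.

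Several of the genes that were higher at 20 h are known from macrophages and other myeloid cells. Siglec1 encodes sialoadhesin, a macrophage receptor for sialic acids, and had 289.9, 277 and 308 at 20 h against 171, 214.9 and 163 at 8 h (difference 0.68 ± 0.14, adjusted p = 0.314). Its difference was 0.56 within replicates 1 and 2 and 0.91 within replicate 3. Cx3cr1 encodes the receptor for fractalkine on monocytes and resident macrophages. It had 187, 163 and 130.1 at 20 h against 59.4, 44.3 and 92.2 at 8 h (difference 1.33 ± 0.30, adjusted p = 0.597). The 3 libraries at 8 h all lay below those at 20 h, with replicate 3 the highest of the 8 h values and the lowest of the 20 h values, so that its difference was 1.74 within replicates 1 and 2 and 0.49 within replicate 3. Under the other names it was 0.04. Fcrls, a scavenger receptor related to Fc receptors, had 283, 287 and 258 at 20 h against 209.7, 180.0 and 179 at 8 h. Cd180, a Toll-like receptor homologue of B cells and myeloid cells, had 74.9, 58.5 and 73.1 at 20 h against 46.8, 46.7 and 45.9 at 8 h. The C-type lectin gene Mgl2 had 318, 279.9 and 267 at 20 h against 208, 175 and 196 at 8 h. Cd93, a receptor of endothelial and myeloid cells, had 785, 828 and 744 at 20 h against 428, 583 and 621 at 8 h. The differences of Fcrls, Cd180, Mgl2 and Cd93 were 0.54, 0.55, 0.58 and 0.55 on the log2 scale, and under the other names 0.21, 0.24, 0.01 and 0.04.

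The other 3 of the higher genes have wider roles. Pmepa1 encodes a membrane protein that TGF-beta induces and that dampens TGF-beta signalling. It had 2390.2, 1732 and 2375 at 20 h, against 1077, 1349.9 and 1425 at 8 h (difference 0.75 ± 0.17, adjusted p = 0.597). C1qtnf6, a secreted protein with a C1q domain, had 186, 113 and 168 at 20 h against 84.2, 92.1 and 97.6 at 8 h. Adcy7, an adenylyl cyclase that makes cyclic AMP, had 695, 434 and 463 at 20 h against 376, 316 and 327 at 8 h. In both, replicate 1 was the highest 20 h library and replicate 2 the lowest, yet each 20 h value exceeded all 8 h values.

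The genes that were lower at 20 h have varied roles. Klf11, a Krüppel-like factor whose promoter window holds the E-box printed above, had 202, 238 and 204 at 20 h against 335, 429.5 and 407 at 8 h (difference −0.86 ± 0.23, adjusted p = 0.807). The other names gave −0.12 for Klf11 and −0.04 for Fut9. Fut9, a fucosyltransferase that makes the Lewis x carbohydrate, had 825, 844 and 996 at 20 h against 1501, 1295 and 1440.1 at 8 h. Capn6, a calpain without protease activity, had 70.3, 89.3 and 73.0 at 20 h against 98.7, 118 and 162 at 8 h. The RNA-binding protein gene Caprin2 had 94.5, 106 and 105 at 20 h against 126, 133 and 135 at 8 h. Fam161a, which encodes a protein of the cilium base, had 121, 133 and 115 at 20 h against 239.9, 149 and 170.1 at 8 h, where replicate 1 stood above the other two. Shpk, a kinase of sedoheptulose, had 126, 154 and 168 at 20 h against 214.8, 199.9 and 178 at 8 h. Zfp971, a zinc finger gene, and a second feature listed under Rnf170 differed by −0.51 and −0.55. The feature listed under Rnf170 had another sign under the other names, and it was the 1 gene of the 20 to change sign under any setting run.

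The 12 h interval can be read against the rest of the CORT day. These genes were picked by their 20 h minus 8 h difference, and that choice favours extremes at those times. Averaged over 3 libraries, Padi2 was 72.0 at 4 h, 27.3 at 8 h, 86.7 at 12 h, 104 at 16 h, 109 at 20 h and 53.8 at 24 h, so 8 h was its lowest and 20 h its highest time. Siglec1, Pmepa1, Adcy7 and Cd93 had the same lowest and highest times. Cx3cr1 was 52.9 at 4 h, 65.3 at 8 h, 118 at 12 h, 115 at 16 h, 160 at 20 h and 83.5 at 24 h, with its lowest mean at 4 h. Ralgps2 was 481 at 4 h, 558 at 8 h, 473 at 12 h, 421 at 16 h, 377 at 20 h and 415 at 24 h, the opposite order of extremes to Padi2. Fut9, Fam161a and the feature under Rnf170 also had their highest mean at 8 h and their lowest at 20 h. Klf11 and Caprin2 were lowest at 20 h too, but highest at 4 h. Fcrls and Mgl2 were highest at 20 h but lowest at 12 h, and Cd180 was highest at 20 h but lowest at 4 h. C1qtnf6 was lowest at 8 h but highest at 4 h. Shpk and Zfp971 were highest at 8 h, but lowest at 4 h and 16 h. Capn6 was lowest at 16 h and highest at 24 h. For comparison, 16 h against 4 h in CORT bladder gave 0 called features by limma with 1325 (7.39%) at an unadjusted p of 0.05, and 24 h against 12 h gave 0 with 761 (4.25%).

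**Figure D2:**
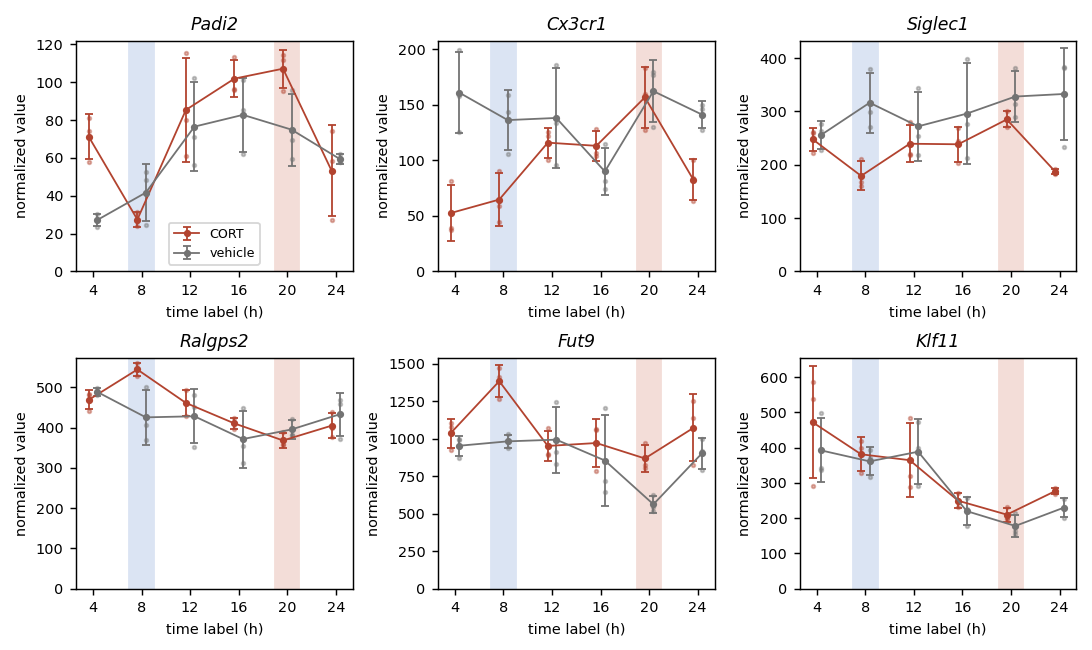
Normalised read count on a scale common to all 36 libraries against label time in h, for Padi2, Cx3cr1, Siglec1, Ralgps2, Fut9 and Klf11 in CORT and vehicle bladder; points are libraries, lines join group means, bars are SD with n = 3, and 8 h and 20 h are shaded. On this scale Padi2 in CORT bladder was 107 ± 10.1 at 20 h and 27.4 ± 3.76 at 8 h, and in vehicle bladder it ran from 59.4 to 96.1 at 20 h and from 24.5 to 52.3 at 8 h.

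In vehicle bladder some of these genes differed over the interval in the same direction as in CORT bladder and some did not. On the scale of all 36 libraries the difference of Klf11 was −0.85 in CORT and −1.03 in vehicle bladder, that of Fut9 −0.67 in CORT and −0.81 in vehicle, and that of Capn6 −0.67 in CORT and −0.78 in vehicle. Padi2 differed by 1.93 in CORT and by 0.87 in vehicle, Mgl2 by 0.58 in CORT and by 0.51 in vehicle. For other genes the vehicle difference was smaller or opposite. Cx3cr1 differed by 1.31 in CORT and 0.26 in vehicle, and Ralgps2 by −0.56 in CORT and −0.10 in vehicle. C1qtnf6, Adcy7 and Fcrls were lower at 20 h in vehicle, by −0.36, −0.36 and −0.23, against 0.72, 0.61 and 0.54 in CORT. None of these differences between CORT and vehicle passed the test over all features (limma adjusted p 0.595 or higher), C1qtnf6 coming nearest with 1.08 ± 0.28.

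No clock gene was called between 20 h and 8 h in CORT bladder. Of 19 tested clock genes, 2 passed an unadjusted p of 0.05 (4.36% of all features did), Nfil3 among them. The 4 genes Per2, Per3, Dbp and Tef had all 20 h libraries below all 8 h libraries without passing it, and 4.75% of all features lay all below. Of the 5 activators 3 were higher and 2 lower (median 0.10), of the 10 repressors 3 were higher and 7 lower (median −0.33), and of the PAR bZIP genes with Nfil3 2 were higher and 2 lower (median −0.14), beside a median of −0.02 over all 17921 features.

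The 8 h group held 1 library, replicate 2, that differed from the other 2 in Nr1d1, Dbp, Arntl and Nfil3. In Per2, Per3 and Tef it lay between the other 2. In Arntl, Nfil3, Cry1 and Hlf replicate 2 was the highest library of both the 8 h and the 20 h group. Nr1d1, which encodes REV-ERB alpha, had 608, 584 and 674 at 20 h against 1032, 498 and 1587 at 8 h (difference −0.59 ± 0.43, unadjusted p = 0.198). Replicate 2 at 8 h lay below every 20 h library, while replicates 1 and 3 lay above them. Dbp, an albumin promoter-binding factor that follows the clock closely, had 292, 308 and 340.1 at 20 h against 733, 407 and 853 at 8 h (difference −1.02 ± 0.52, unadjusted p = 0.0701), and here 8 h replicate 2 was again nearest to the 20 h values. Arntl, whose window holds a RORE, had 172, 289.8 and 200 at 20 h against 87.4, 193 and 88.7 at 8 h (difference 0.91 ± 0.43, unadjusted p = 0.0561). Nfil3, a repressor that competes with DBP and whose window also holds a RORE, had 139.9, 146 and 124 at 20 h against 50, 142 and 58.4 at 8 h (difference 0.86 ± 0.34, unadjusted p = 0.026). In both RORE genes 8 h replicate 2 stood inside the 20 h range, and the groups overlapped only through it. Without 8 h replicate 2 the differences were −1.04 for Nr1d1 (unadjusted p = 0.027), −1.34 for Dbp (0.0352), 1.28 for Arntl (0.0135) and 1.32 for Nfil3 (0.000391), none past the adjusted threshold (limma adjusted p of at least 0.666). That library was singled out by its place in Nr1d1, Dbp, Arntl and Nfil3, so wider differences without it follow from the choice. CORT 8 h replicate 2 is one of the 2 doubly named libraries. The differences under the other names were −0.27 for Nr1d1, −0.38 for Dbp, 0.53 for Arntl and 0.83 for Nfil3.

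**Figure D3:**
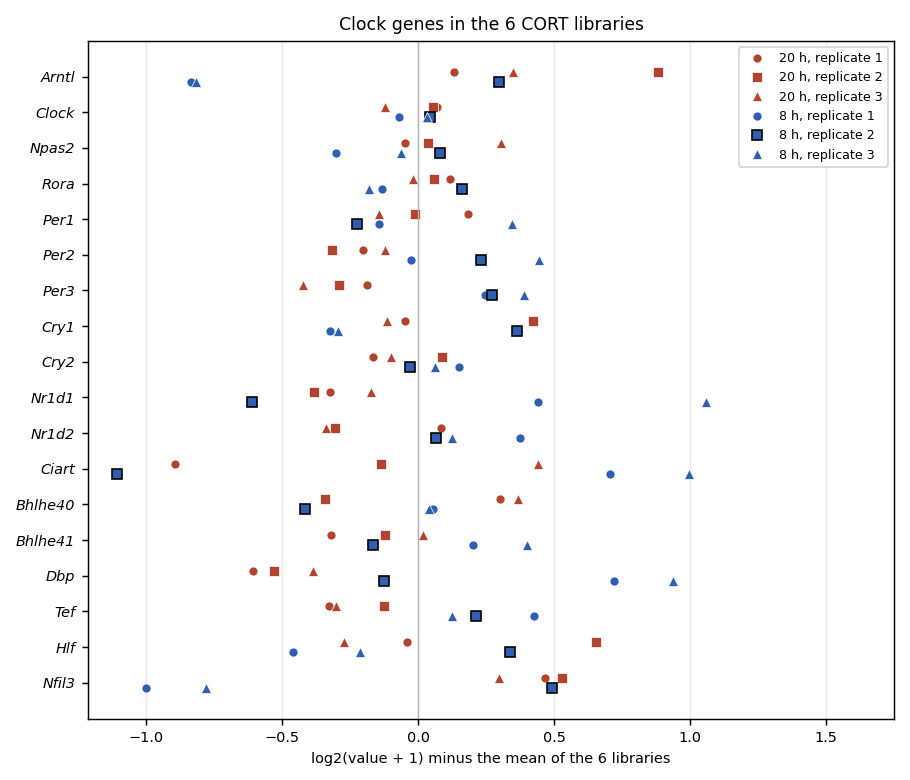
The log2(value + 1) of each of 18 clock genes in the 6 CORT libraries, minus that gene's mean over the 6, with 20 h in red, 8 h in blue, the marker shape giving the replicate and 8 h replicate 2 outlined in black. For Nr1d1, Dbp, Arntl and Nfil3 the outlined library sits nearer to the 20 h libraries than the other 8 h libraries do.

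The remaining clock genes showed smaller differences. The period gene Per2 had 414, 382 and 438 at 20 h against 468, 559 and 649 at 8 h, and Per3 had 203, 189 and 172 at 20 h against 275, 280.2 and 304 at 8 h. Tef had 1384, 1592 and 1409.5 at 20 h against 2339, 2015 and 1898 at 8 h. These 3 genes kept the groups apart, with differences of −0.43, −0.60 and −0.51. Per1, a period gene with a direct response to glucocorticoids, had 354, 309 and 282 at 20 h against 282, 267 and 396 at 8 h. Its difference was 0.02 ± 0.36. Clock, the partner of BMAL1, differed by 0.00 ± 0.11 and the other activators Npas2 and Rora by 0.19 and 0.10. The differences of Nr1d2, Bhlhe41 and Cry2 were −0.37, −0.29 and −0.12 and those of Cry1, Bhlhe40 and Hlf 0.17, 0.22 and 0.22. Ciart, a repressor of CLOCK and BMAL1, had only 3.89, 7.28 and 11.3 at 20 h against 13.8, 3.22 and 17.1 at 8 h.

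Vehicle bladder had wider differences in several of the same genes over the same interval, and the values that follow are on the scale of all 36 libraries. Nr1d1 had 594, 569.8 and 659 at 20 h against 1009, 485 and 1556 at 8 h in CORT bladder, and 178, 212 and 212 at 20 h against 2122, 1859.9 and 1959.5 at 8 h in vehicle bladder. It fell at 20 h in vehicle (−3.30 ± 0.34, limma adjusted p = 1.03e-05), against −0.59 ± 0.34 in CORT. The difference between the arms was 2.71 ± 0.49, with an unadjusted p of 8.06e-06 and an adjusted p of 0.144, and it was called under 2 alternatives, with library weights (2.96, adjusted p = 0.00193) and without CORT 8 h replicate 3 (3.09, adjusted p = 0.0145). Dbp had 166, 139 and 146 at 20 h against 1103, 895 and 968 at 8 h in vehicle, and it fell there (−2.71 ± 0.41, adjusted p = 0.00346), against −1.02 ± 0.41 in CORT. Cry1 had 229, 318 and 219 at 20 h against 190, 305 and 193 at 8 h in CORT bladder, and 408, 387 and 384 at 20 h against 159, 153 and 185 at 8 h in vehicle. It rose at 20 h in vehicle (1.24 ± 0.20, adjusted p = 0.00828), against 0.17 ± 0.20 in CORT. Nr1d2 also fell in vehicle (−1.02 ± 0.20, adjusted p = 0.0347), against −0.37 ± 0.20 in CORT. For Dbp, Cry1 and Nr1d2 the difference between the arms did not pass the test, with unadjusted p of 0.00744, 0.000933 and 0.0332 and adjusted p of at least 0.616. The other naming of libraries also crosses the 2 arms. Under it, vehicle 20 h replicate 2 is the library with 1859.9 for Nr1d1, and vehicle 8 h replicate 2 the one with 569.8. In CORT, 20 h replicate 2 is the library with 485, and 8 h replicate 2 is the one printed here as vehicle 20 h replicate 2, with 212. Which names are right was not tested.

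**Figure D4:**
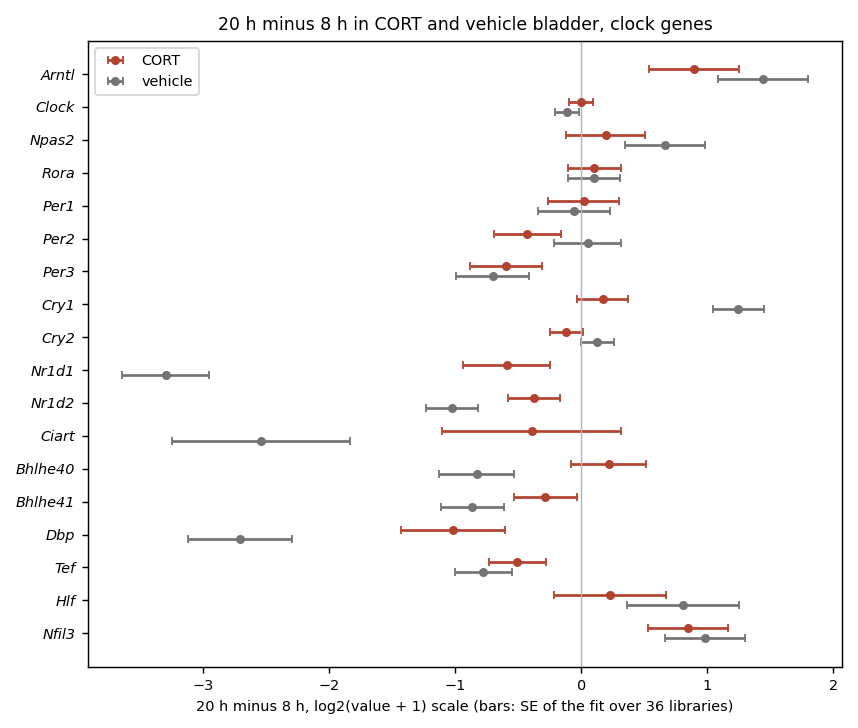
Difference of 20 h minus 8 h on the log2(value + 1) scale for each of 18 clock genes in CORT and in vehicle bladder, with SE bars from the fit over 36 libraries. Nr1d1 lies at −0.59 in CORT and −3.30 in vehicle bladder, and Cry1 at 0.17 in CORT and 1.24 in vehicle bladder.

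The genes known to be induced through the glucocorticoid receptor were not called between 20 h and 8 h. Of 30 tested, 11 were higher and 19 lower at 20 h (median −0.14), with 1 higher and 3 lower at an unadjusted p of 0.05, where 4.36% of all features passed. The 3 lower ones were Angptl4, an inhibitor of lipoprotein lipase, and the metallothionein genes Mt1 and Mt2, whose products bind zinc and copper. Angptl4 had 28.3, 52.9 and 58.9 at 20 h against 64.1, 187 and 140.4 at 8 h (difference −1.40 ± 0.50, unadjusted p = 0.015), with all 20 h libraries below all 8 h libraries. Its difference under the other names was 0.05 (unadjusted p = 0.954). Mt1 had 246, 365 and 323 at 20 h against 785, 358 and 656 at 8 h (−0.89 ± 0.32, unadjusted p = 0.015), where 8 h replicate 2 lay inside the 20 h range. Mt2 had 116, 159.7 and 207 at 20 h against 328, 269 and 557 at 8 h (−1.22 ± 0.46, unadjusted p = 0.0178). In vehicle bladder, which received no hormone, the differences of these 3 genes were −1.76, −0.87 and −1.21, beside −1.38, −0.89 and −1.22 in CORT on the scale of all 36 libraries. Tat, an enzyme of tyrosine breakdown best known from liver, was the higher one, with 15.1, 21.5 and 33.4 at 20 h against 14.6, 7.83 and 9.33 at 8 h (1.04 ± 0.43, unadjusted p = 0.0284), but its difference was −0.99 under the other names. The differences of Mt1 and Mt2 were −0.72 and −0.53 under the other names. In vehicle bladder Tat differed by 3.48 ± 0.76 (limma adjusted p = 0.0609), beside 1.04 in CORT on the scale of all 36 libraries. The difference of Tat between the arms was not called.

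Fkbp5, a co-chaperone that restrains the glucocorticoid receptor, had 441, 600.4 and 631 at 20 h against 644, 697 and 1222 at 8 h (difference −0.57 ± 0.32). Tsc22d3, which encodes the anti-inflammatory protein GILZ, had 827, 820.2 and 631 at 20 h against 681, 838 and 1013 at 8 h (−0.14 ± 0.35). Both were far from their CORT levels at 4 h, where the means were 2491 for Fkbp5, 3512 for Tsc22d3 and 1233 for Per1. The glucocorticoid receptor gene Nr3c1 had 2452, 2225 and 1796 at 20 h against 1799, 2007 and 1618 at 8 h, with overlap. The mineralocorticoid receptor gene Nr3c2, whose product also binds corticosterone, had 275, 409.7 and 284 at 20 h against 432, 446 and 403 at 8 h (−0.42 ± 0.20, unadjusted p = 0.0488). Hsd11b1, which regenerates corticosterone from its inactive form, had 490.2, 276 and 248 at 20 h against 244, 303 and 242 at 8 h.

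Genes that fold proteins in the endoplasmic reticulum were higher at 20 h in 16 of 17 cases (median 0.27), where 46.4% of all features were higher. None was called, and 6 passed an unadjusted p of 0.05, where 4.36% of all features passed. In 2 of the 17 all 20 h libraries lay above all 8 h libraries, beside 4.78% of all features. Hyou1, a chaperone of the HSP70 family, had 2148, 1959 and 2559 at 20 h against 1612, 1648 and 1868 at 8 h (0.37 ± 0.12, unadjusted p = 0.00818). Hspa5, which encodes the chaperone BiP, had 5958, 3502 and 4729 at 20 h against 3097, 3179.7 and 3772 at 8 h (0.47 ± 0.20, unadjusted p = 0.0328). Pdia6, a disulphide isomerase, and the stress-induced gene Creld2 differed by 0.41 and 0.46. In each of these 4 genes replicate 2 was the lowest 20 h library. The median was 0.33 without the doubly named libraries (15 of 17 higher) and 0.02 under the other names (12 of 17 higher). In vehicle bladder, where 47% of all features were higher at 20 h, 16 of these 17 were higher, with a median of 0.23.

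Cholesterol synthesis genes showed the opposite direction in CORT bladder, with 2 of 17 higher and 15 lower at 20 h (median −0.25). None was called, and 2 passed an unadjusted p of 0.05, beside 4.36% of all features. Insig1, which holds the sterol sensor in the endoplasmic reticulum, had 587, 713 and 799.6 at 20 h against 1015, 895 and 899 at 8 h (−0.43 ± 0.14, unadjusted p = 0.00731). Fdft1, squalene synthase, had 370.1, 394 and 509.8 at 20 h against 606, 475 and 701 at 8 h (−0.48 ± 0.20, unadjusted p = 0.0311). Hmgcs1, which makes HMG-CoA, had 1709, 1901 and 2235 at 20 h against 2537, 2111 and 2759 at 8 h, with overlap. The list kept 2 of 17 higher without the doubly named libraries and also under the other names, with medians of −0.26 and −0.21. In vehicle bladder 15 of 17 were higher (median 0.07). Among 15 fatty acid oxidation genes 4 were higher and 11 lower (median −0.06).

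**Figure D5:**
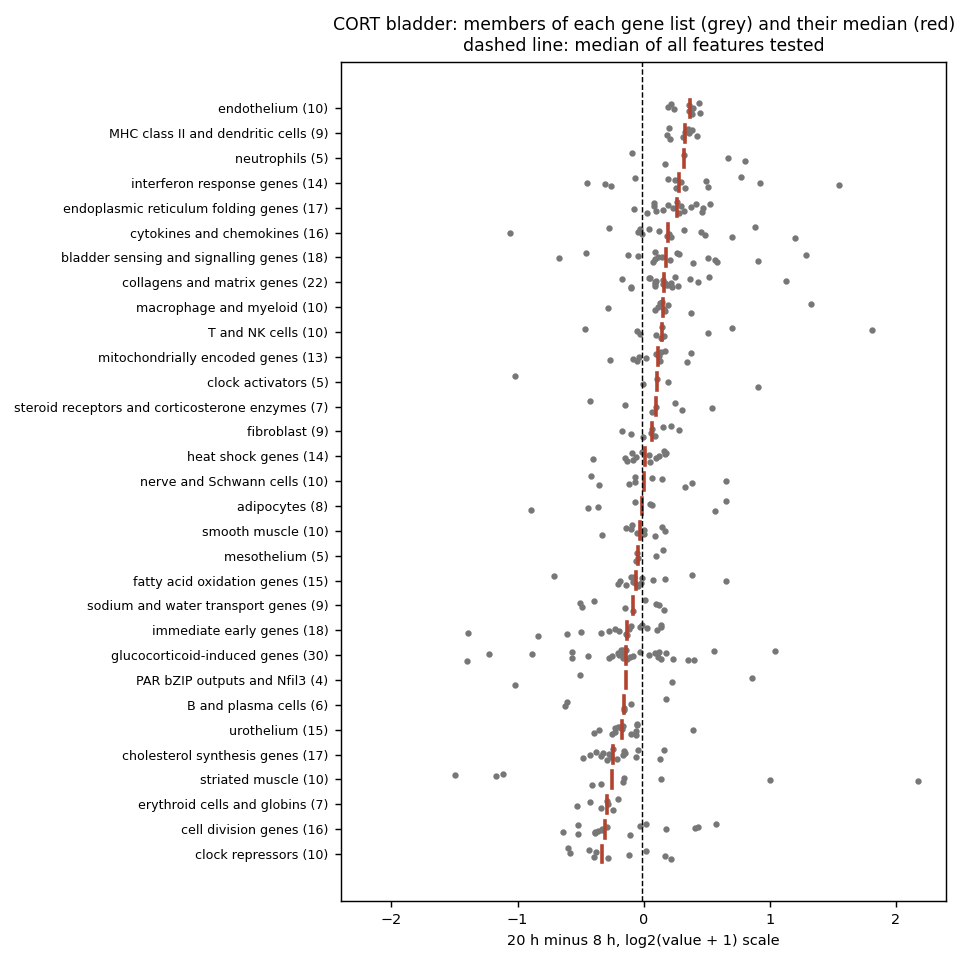
Difference of 20 h minus 8 h in CORT bladder on the log2(value + 1) scale for the tested members of each gene list with 4 or more such members (grey points), with the list median in red and the median of all features dashed. Medians run from the endothelial list at 0.37 to the clock repressors at −0.33, with the MHC class II list at 0.33 and the cholesterol list at −0.25 between them.

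Some of the other lists differed in direction between the arms and some did not, with no member called in CORT bladder. Lists were not tested between the arms, and the test by feature called 0 there. Counts in vehicle were not repeated under the other names. Interferon response genes were higher at 20 h in 10 of 14 cases (median 0.28), against 1 of 14 in vehicle (median −0.55). Oas1a, a sensor of double-stranded RNA, had 16.2, 18.6 and 26.4 at 20 h against 11.4, 8.72 and 10.3 at 8 h (0.92 ± 0.31, unadjusted p = 0.0112), at low counts, and 0.19 under the other names. Zbp1, a sensor of nucleic acids, differed by 0.77 ± 0.35 (unadjusted p = 0.0429), and by 0.05 under the other names. Collagen and matrix genes were higher in 19 of 22 cases (median 0.16) in CORT, against 4 of 22 (median −0.46) in vehicle, but no member had an unadjusted p under 0.05 or separate groups in CORT. Eln, elastin, had 2922, 993 and 2802 at 20 h against 1100.2, 758 and 938 at 8 h, where 20 h replicate 2 lay inside the 8 h range. Under the other names 8 of 22 collagen and matrix genes were higher. Cell division genes were lower in 11 of 16 cases (median −0.31) in CORT, and their median in vehicle was −1.29. Mcm2, a helicase subunit of DNA replication, had 213, 180.2 and 285 at 20 h against 154, 175 and 173 at 8 h (0.41 ± 0.18, unadjusted p = 0.0445). Of 16 cytokine and chemokine genes 11 were higher and 5 lower, and of 18 immediate early genes 4 were higher and 14 lower (medians 0.19 and −0.13). Of the 16 cytokine and chemokine genes, 6 were higher under the other names. Of 14 heat shock genes 7 were higher and 7 lower, and both cold-inducible genes, Rbm3 and Cirbp, were lower (−0.31 and −0.30).

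Genes by which the bladder senses filling and answers nerves were mostly higher at 20 h, in 14 of 18 cases (median 0.18). At an unadjusted p of 0.05, where 4.36% of all features passed, 1 of them did. That gene was Slc17a9, the vesicular carrier that loads ATP for release, with 13.8, 8.50 and 27.7 at 20 h against 6.28, 3.89 and 6.78 at 8 h (1.29 ± 0.42, unadjusted p = 0.00896). The groups do not overlap, though the counts are low and 20 h replicate 3 stands far above the others, and the difference was 0.58 under the other names. Chrm2, a muscarinic receptor, had 1406, 531 and 799 at 20 h against 464, 621 and 314 at 8 h (0.91 ± 0.48, unadjusted p = 0.0784), and its groups overlap. The beta adrenergic receptor gene Adrb3 differed by 0.58 ± 0.36. Piezo1, a channel opened by stretch, had 761, 739 and 990.0 at 20 h against 729, 832 and 1003 at 8 h, a difference of −0.04 ± 0.18. Gja1, the connexin gene of bladder muscle and urothelium, differed by 0.21 ± 0.24. Among 9 sodium and water transport genes 4 were higher and 5 lower. Atp1b1, the beta subunit of the sodium pump, had 457, 425 and 441 at 20 h against 642, 536 and 694 at 8 h (−0.49 ± 0.16, unadjusted p = 0.00772). The groups do not overlap, and the difference was −0.14 under the other names. Scnn1b, a subunit of the epithelial sodium channel, had 73.4, 108 and 104 at 20 h against 115, 125 and 166 at 8 h. Of 13 mitochondrially encoded genes 9 were higher and 4 lower.

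Markers of the cell types that whole bladder holds were measured in every library. In bulk tissue, fewer cells of a type and less RNA per cell cannot be told apart. At an unadjusted p of 0.05, 2 of 10 macrophage markers passed, beside 4.36% of all features. The macrophage markers were higher at 20 h in 9 of 10 cases (median 0.15). Their summed level was 10150, 8715 and 9323 at 20 h against 8721, 8181 and 8728 at 8 h (exact permutation p = 0.3, two-sided, where 3 against 3 cannot go below 0.10). The ranges overlap, and the part of macrophage number in the values of Cx3cr1, Siglec1 and Fcrls was not tested. Adgre1, the F4/80 antigen, had 453, 408 and 391 at 20 h against 331, 350.3 and 283 at 8 h (0.38 ± 0.12, unadjusted p = 0.00813). Csf1r, the receptor that macrophages need to survive, had 1273, 1261 and 1332 at 20 h against 1061, 1206 and 1119 at 8 h (0.19 ± 0.11). In both genes the groups do not overlap.

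The MHC class II list, markers of antigen-presenting cells, was higher in 9 of 9 cases (median 0.33). In it 4 passed an unadjusted p of 0.05, beside 4.36% of all features. H2-Ab1 had 1252, 1241 and 968 at 20 h against 964, 828 and 951 at 8 h (0.33 ± 0.10, unadjusted p = 0.00631), and Cd74, the invariant chain, had 3387, 3593 and 2594 at 20 h against 2647, 2185 and 2849 at 8 h. The lowest 20 h library was replicate 3 in both. Under the other names 3 of 9 were higher. Endothelial markers were higher in 10 of 10 cases (median 0.37), with 1 at an unadjusted p of 0.05 (4.36% of all features). Their summed level was 5367, 5109 and 4263 at 20 h against 3171, 4124 and 4493 at 8 h (exact permutation p = 0.2, two-sided). The overlap lay in replicate 3. Tek, an angiopoietin receptor, had 386, 367 and 309.5 at 20 h against 261, 287 and 274 at 8 h (0.36 ± 0.17). Under the other names 4 of 10 endothelial markers were higher. Cd93, named among the 20 genes, is made by endothelium too, and the part of endothelial RNA in its difference was not tested.

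Urothelial markers were lower at 20 h in 14 of 15 cases (median −0.17), with none at an unadjusted p of 0.05. The 1 higher was Krt5, the keratin of basal cells, with 12905, 12905 and 14433 at 20 h against 9516, 10146 and 11118 at 8 h. Grhl3, a factor of the barrier-forming umbrella cells, had 1472, 1478 and 1706 at 20 h against 1889.9, 1875 and 2386 at 8 h (−0.40 ± 0.23), and these groups do not overlap. The summed urothelial level was 96392 to 116097 at 20 h against 105701 to 119303 at 8 h, and under the other names 4 of 15 were higher. Smooth muscle markers summed to 301241 to 334699 at 20 h against 308035 to 350595 at 8 h, and fibroblast markers to 63941 to 73716 at 20 h against 63168 to 71355 at 8 h, both overlapping. All 15 urothelial and all 10 smooth muscle markers were detected in each of the 6 libraries, which carry the label of whole bladder, while 5 of 8 prostate and seminal vesicle markers were at 0 in all 6.

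Of 10 nerve and Schwann cell markers 5 were higher and 5 lower at 20 h (median 0.00), and in vehicle 8 of 10 were higher. Their sum was 4344 to 5270 at 20 h against 5436 to 6216 at 8 h, without overlap (exact permutation p = 0.1, two-sided, the smallest possible). Most of that sum is Uchl1, a ubiquitin hydrolase of neurons, with 3301, 3956 and 3886 at 20 h against 5323, 4792 and 4736 at 8 h, so the sum does not speak for the list. The neutrophil markers summed to 202 to 275 at 20 h against 129 to 177 at 8 h (exact permutation p = 0.1, two-sided), again without overlap. The largest part of that sum is Mmp9, a matrix protease not limited to neutrophils, with 179, 255 and 192 at 20 h against 112, 127 and 152 at 8 h (0.67 ± 0.24, unadjusted p = 0.0138), while the defining markers Ly6g and Camp, 2 of 9 in the list, were at 0 in all 6 libraries. In vehicle Mmp9 differed by −0.60, and the difference between the arms was 1.26 ± 0.28 (limma adjusted p = 0.458). Ncr1, a receptor of natural killer cells, had 11.6, 8.28 and 8.28 at 20 h against 1.06, 3.89 and 1.5 at 8 h (1.81 ± 0.53, unadjusted p = 0.00436). It was the 1 member of 10 in the T and NK cell list at an unadjusted p under 0.05, which 4.36% of all features passed. The list's sums overlapped, at 72.2 to 115 at 20 h against 65.2 to 106 at 8 h. The protocol text of the labels speaks of blood with globin removal although the source is whole bladder. Erythroid markers were lower at 20 h in 7 of 7 cases (median −0.29), with sums of 1204 to 1785 at 20 h against 1570.2 to 2334 at 8 h, and without the doubly named libraries 3 of 7 were higher. The sums of the striated muscle, adipocyte, mesothelial and B cell markers overlapped between the groups, with list medians of −0.25, −0.01, −0.04 and −0.16. Without the doubly named libraries these medians were −0.13, 1.01, −0.04 and −0.58, so those of adipocytes and B cells moved most.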

How the data were processed

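Total RNA of whole bladder was sequenced as directional libraries depleted of ribosomal RNA (per the labels' protocols). The genome build was mm10 according to the submitters' processing notes. Which aligner and counter were used is not given in the sources used here. Per gene, the authors deposited a normalised signal, which from the values is read counts quantile normalised over the 12 libraries of each table (values are multiples of 1/12). The mean of the sorted values over the 3 tables of a treatment gave a scale for its 18 libraries, and that over all tables a scale for 36. The authors' deposited log2 tables of selected genes served only to check library names. A feature was dropped when over 50% of the 18 libraries had it at their lowest value. limma 3.58.1 in R 4.3.3 was fitted to log2(value + 1) over 6 time groups, with Benjamini-Hochberg adjustment over all features and a threshold of 0.05. Differences between the arms are contrasts over 36 libraries. Quantile normalisation forces 1 distribution on all libraries, so a shift of most genes at once cannot be seen. The CORT fit was checked on simulated data, with changes set in features with a mean of at least 50. It called 76% of 2-fold rises, 30% of 1.5-fold rises and 36% of falls to 0.667. Changes of that size can thus go uncalled. Named genes are the called features, the 10 higher and 10 lower genes of smallest p with a mean of at least 50 and no overlap, and members of the lists; some genes these rules name are not reported here, though counts over lists include them. Members, lists and tests were chosen with earlier results of these data known. Coordinates are from the GENCODE annotation of mm10, and promoter windows from RefSeq GRCm38.p6.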

Additional observations from a re-analysis of the deposited data

How the results depend on the processing

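The count of called features was small under every setting run and moved with it. It was 2 as reported, 5 with only the 6 libraries, 1 with all 36, 4 with library weights, 1 with Gm21541 and Gm13304 summed (an alternative chosen after seeing the data) and 0 under the other library names (418 at an unadjusted p of 0.05, against 781 as reported). Leaving out 1 replicate number gave 0 to 4, with 0 without replicate 2 and 0 without replicate 3 (752 and 682 at an unadjusted p of 0.05), and the deposited tables of replicates 1 and 2, 1 and 3, and 2 and 3 gave 0, 0 and 4 (668 and 754 at an unadjusted p of 0.05 for the 2 with 0). Features without overlap numbered 1707 as reported and 865 under the other names. The difference between the arms had 0 called features as reported and 1 with library weights, and 0 to 7 when 1 replicate was left out, the 7 without replicate 1. Same-numbered libraries deviated together with r of 0.0636, 0.131 and 0.111 across features. Differently numbered ones had r from −0.0982 to −0.0157. Deviations within a group cancel, so these r are not independent of each other. The main fit did not treat the numbers as pairs, and whether they pair the samples was not tested. A replicate block gave 2 called features and 959 at an unadjusted p of 0.05 (0 for the difference between the arms), and each 20 h library correlated best with its own number, a hint from the data only. Padi2 was called with only the 6 libraries (adjusted p = 0.0484), with all 36 (0.0146), with a minimum mean of 10 (0.0436), with a trended variance (0.0474) and with library weights (0.00506). Without the doubly named libraries 2 features were called and 827 had an unadjusted p of 0.05. With 3 libraries a group and a mean of 11016413 counts per CORT library, features of a few counts such as Vmn1r32 rest on single reads.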
